A study of Mus musculus with 8 samples.

Results

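The 100 genes described here were high in 3 of 8 libraries of mouse epididymal fat and far lower in the other 5, where most had few reads or 0. For each of the 16505 genes in the table, the highest level among 5 libraries was subtracted from the lowest level among WT replicate 2 and knockout replicates 2 and 4, and the 100 genes with the largest result were taken. Levels are log2 CPM, the logarithm of reads scaled to the same library total, so a difference of 1 is a 2-fold difference. The genes were chosen by their measured log2 CPM in these 8 libraries, so the split between the 3 and the 5 libraries is a description and carries no test. The label given to the set, epididymis transcripts, came with Gpx5 as its marker. Gpx5 was among the 100 genes, but label and marker were given together with the rule, so its presence is no test of the label.

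The 8 libraries came from the epididymal white adipose tissue (eWAT) of C57BL/6 mice, 4 wild type (WT) and 4 miR-181-double knockout, called the knockout here. Both groups had received a high fat diet for 12 weeks. MiR-181 is a family of microRNAs encoded at several loci, and which of them were deleted is not stated in the labels, nor are the age, litters or housing of the mice. PolyA RNA was made into stranded libraries and read as single ends of 75 bases.

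The epididymis is the coiled duct in which sperm leaving the testis mature and are stored, and the fat depot sampled here is attached to it. Its epithelium secretes proteins into the lumen under the control of androgens and of factors from the testis, and the set of secreted proteins changes along the duct from the initial segment through caput and corpus to cauda. Beta-defensins, lipocalins, cystatins, CRISP proteins, RNase A relatives, protease inhibitors and the secreted glutathione peroxidase Gpx5 are known products of this epithelium, and many are encoded in clusters of neighbouring genes.

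Library totals ran from 3736881 reads in knockout replicate 1 to 76838584 in knockout replicate 2, and a gene with 0 reads is written in the table as a value between -7.26 and -2.90 log2 CPM, lower in deeper libraries. All 5 adipocyte markers (Adipoq, Plin1, Fabp4, Lep, Cidec) were above 0 reads in every library. Their summed level was 7727 to 17482 CPM in the 3 libraries and 7366 to 23281 CPM in the other 5. These pooled ranges overlapped, but every knockout library was above every WT library. Within WT, replicate 2 (7727 CPM) was above replicates 1 and 4 (7366 and 7560) and below replicate 3 (13374). Within the knockout, replicates 2 and 4 (16782 and 17482 CPM) were both below replicates 1 and 3 (23281 and 21119). The 3 libraries stand apart from the rest in the genes described here, and 1 of them is WT and 2 are knockout.

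Reads of the 100 genes made up 2.50% of WT replicate 2 (385326 reads), while knockout replicate 2 had 4.37% (3355897 reads) and knockout replicate 4 had 1.91% (387756 reads). In the other WT libraries the share was 0.000833% (34 reads) in replicate 1, 0.00794% (539 reads) in replicate 3 and 0.00148% (87 reads) in replicate 4. In the other knockout libraries it was 0.00112% (42 reads) in replicate 1 and 0.00605% (2196 reads) in replicate 3. The lowest share among the 3 libraries was 240 times the highest among the 5, and neither genotype was all high or all low. The 95% Wilson intervals of these shares, which cover counting error only, were at most 0.00781 percentage points to either side. In bulk tissue, fewer cells of a type and less RNA per cell cannot be told apart.

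**Figure D1:**
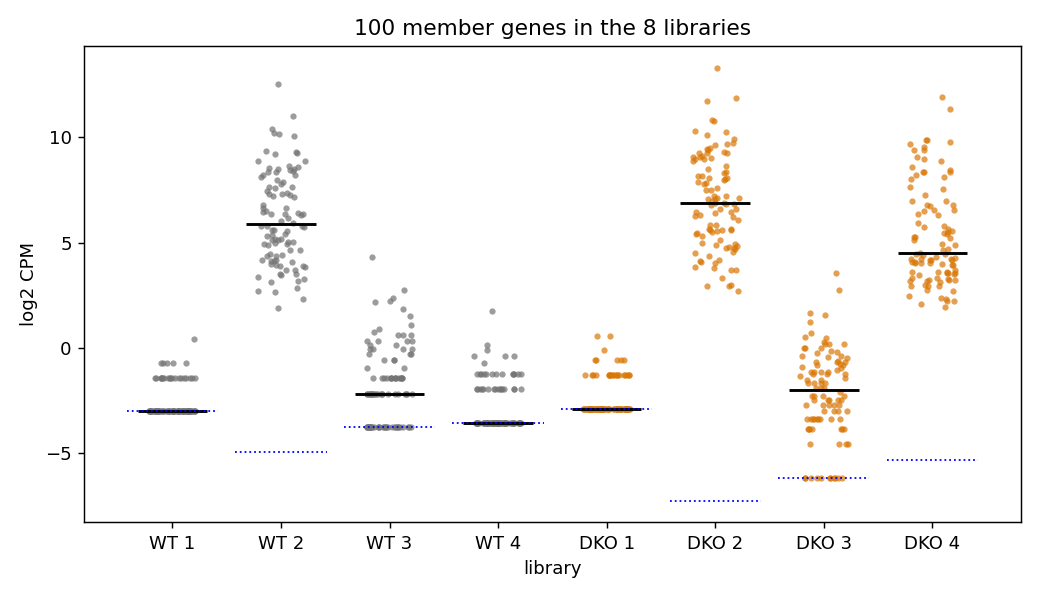
Levels of the 100 genes (log2 CPM, vertical axis) in each of the 8 libraries (horizontal axis, WT in grey, knockout labelled DKO in orange), with 1 point per gene, a black line at the median and a dotted blue line at the value that stands for 0 reads. Medians were 5.88, 6.86 and 4.48 in WT 2, DKO 2 and DKO 4 and between -3.55 and -2.01 in the others, where many points lie on the dotted line.

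Gpx5, a selenium-free glutathione peroxidase secreted in the caput that protects sperm from peroxide damage, was the most abundant of the set. It had 92593 reads in WT replicate 2, and 783276 and 79328 in knockout replicates 2 and 4. It had 5, 134 and 19 reads in WT replicates 1, 3 and 4, and 5 and 430 reads in knockout replicates 1 and 3. On the log2 CPM scale these reads correspond to 0.43, 12.55, 4.31 and 1.73 in WT replicates 1 to 4 and to 0.56, 13.32, 3.57 and 11.93 in knockout replicates 1 to 4. The 3 libraries therefore lay at least 7.62 above the rest, and the lowest of them was 374 times the level of the other 5 libraries pooled. Per kilobase of exon, Gpx5 reached 3589 CPM per kb in WT replicate 2, and 6089 and 2330 in knockout replicates 2 and 4. Its mean over the 3, 4003 CPM per kb, ranked first of the 15749 genes with an exon length. That length is the union of all annotated exons of a gene, so the rank depends on the annotation. Before division by length, the adipocyte gene Fabp4 was at 12.28, 13.01 and 13.40 log2 CPM in WT replicate 2 and knockout replicates 2 and 4. Fabp4 was thus below Gpx5 in WT replicate 2 and knockout replicate 2 and above it in knockout replicate 4. Gpx5 held 24.03%, 23.3% and 20.5% of the reads of the 100 genes in the 3 libraries. Of the 7 glutathione peroxidase genes in the table, Gpx5 was the only one in the set.

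The beta-defensins, small cationic antimicrobial peptides of which many bind to the sperm surface in the epididymis, gave the family with the most genes. Together with Spag11a and Spag11b, which encode related peptides of the same gene cluster, they counted 18 of the 31 such genes in the table and 14.4%, 14.7% and 17.7% of the reads of the set in the 3 libraries. Spag11b, also called Bin1b in rat and known for an effect on sperm motility, stood at -1.44, 10.21, 2.21 and -0.38 log2 CPM in WT replicates 1 to 4 and at -0.58, 10.83, 1.22 and 9.86 in knockout replicates 1 to 4. Defb20 stood at -0.71, 9.30, 0.32 and -1.97 in the WT libraries and at -1.32, 10.31, 0.71 and 9.70 in the knockout libraries, in the same order. Both genes were high in the same 3 libraries with no overlap, as the rule requires, and among the other 5 both were highest in WT replicate 3 and knockout replicate 3. Per kilobase, Defb20 (1321 CPM per kb, mean of the 3 libraries), Defb48 (1204), Defb25 (834) and Spag11b (754) led the family.

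Other defensins differed in how the 3 libraries were ordered. Defb48 stood at 8.55 log2 CPM in WT replicate 2, at 8.95 and 9.53 in knockout replicates 2 and 4, and at -3.03 to 0.32 elsewhere. Defb30 was at 8.20 and 9.33 in WT replicate 2 and knockout replicate 2 but at 5.77 in knockout replicate 4, against -3.55 to -0.59 in the other 5. Defb42 was at 7.89, 8.95 and 8.002 in the same order. Knockout replicate 4 was thus the highest of the 3 for Defb48, the lowest for Defb30 and close to WT replicate 2 for Defb42. Across the 18 genes the difference of knockout replicate 4 from WT replicate 2 ran from -3.16 (Defb12) to 1.11 (Defb25) with a median of -0.93, and 14 were lower in knockout replicate 4. Knockout replicate 2 was above WT replicate 2 for 17 of the 18, the exception being Defb43, at 3.52 log2 CPM in WT replicate 2 and 2.72 in knockout replicate 2. Several mouse defensin genes are near copies of each other, as are Spag11a and Spag11b, so the split of reads between single members is uncertain. The 2 entries Gm15386 and Defb41 are such a case: RefSeq gives Gm15386 as an older name of Defb41, while the deposited table lists both, and their values were 6.16, 6.76 and 6.56 for Gm15386 and 4.18, 5.13 and 4.06 for Defb41 in WT replicate 2 and knockout replicates 2 and 4. Gm15386 also had the largest margin of the whole set, 9.07. Its highest value among the other 5 libraries came from knockout replicate 1, with 0 reads. The margin is therefore set by the depth of that library.

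Lipocalins, carriers of small hydrophobic ligands such as retinoids, had about as many reads as the defensins (629181 against 617310 over the 3 libraries). Their 7 genes of 12 in the table (Lcn5, Lcn6, Lcn8, Lcn9, Lcn10, Lcn12 and Obp2a) held 13.4%, 14.6% and 22.2% of the reads of the set in the 3 libraries. Lcn8 stood at -0.71, 10.14, 2.35 and -1.23 log2 CPM in WT replicates 1 to 4 and at -1.32, 10.76, 1.58 and 11.35 in knockout replicates 1 to 4. Lcn5, the retinoic acid-binding protein of the epididymis, stood at -0.71, 10.38, 2.17 and -0.09 in the WT libraries and at -0.58, 11.72, 1.63 and 9.06 in the knockout libraries. The order of the 3 libraries differed between these neighbouring genes: knockout replicate 4 was the highest for Lcn8 and the lowest for Lcn5. Per kilobase, Lcn8 exceeded Gpx5 in knockout replicate 4 (4021 against 2330 CPM per kb), whereas Gpx5 exceeded Lcn8 in WT replicate 2 (3589 against 1730) and knockout replicate 2 (6089 against 2664). Lcn9 stood at 9.33, 9.68 and 9.78 log2 CPM in WT replicate 2 and knockout replicates 2 and 4, and at -3.03 to 0.88 in the other 5. Lcn10 was at 7.29, 8.08 and 6.99 in the 3 and at -3.76 to -1.23 elsewhere.

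**Figure D2:**
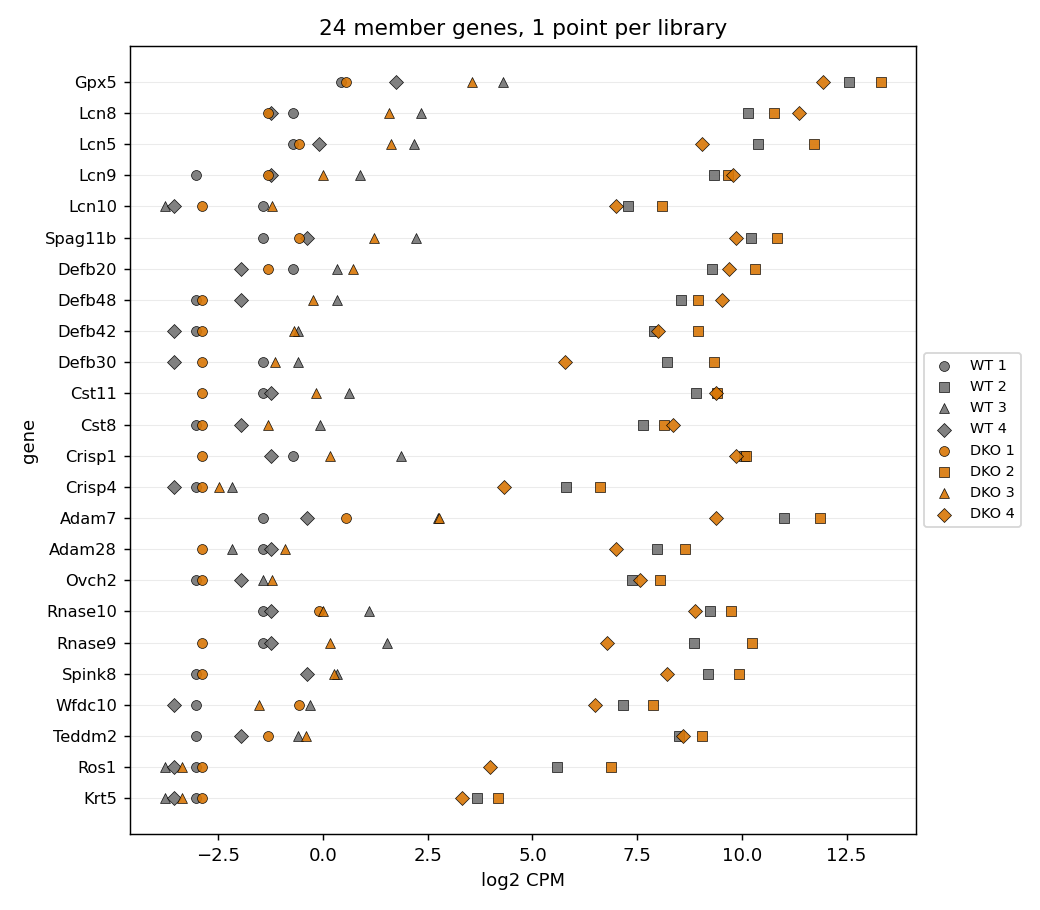
Levels (log2 CPM, horizontal axis) of 24 of the genes (vertical axis), 1 point per library, with WT in grey and knockout (DKO) in orange and a marker shape for each replicate number. For each gene the points of WT 2, DKO 2 and DKO 4 lie to the right of the other 5, as the rule requires, and DKO 4 is rightmost for Lcn8, Lcn9, Cst8 and Defb48 but well left of DKO 2 for Lcn5, Adam7, Defb30 and Rnase9.

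Proteases were few: 3 of the 70 protease genes searched for by name were in the set. Adam7 and Adam28 encode membrane proteins of the ADAM family, and ADAM7, which lacks the catalytic site, is transferred from the epididymal epithelium to sperm. Adam7 stood at -1.44, 11.001, 2.74 and -0.38 log2 CPM in WT replicates 1 to 4 and at 0.56, 11.86, 2.76 and 9.38 in knockout replicates 1 to 4. Adam28 was at 7.98, 8.65 and 6.99 in WT replicate 2 and knockout replicates 2 and 4, and at -2.90 to -0.90 in the rest. Ovch2, a serine protease related to ovochymases, was at 7.38, 8.06 and 7.57 in the 3 and at -3.03 to -1.23 elsewhere, with a margin of 8.60, the fourth largest of the set. Knockout replicate 4 minus WT replicate 2 was -1.62 for Adam7, -0.99 for Adam28 and 0.19 for Ovch2. The share of the 3 genes among the reads of the set was 9.87%, 10.1% and 5.14%.

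Inhibitors of proteases were more numerous. The CRES group of cystatins, which are made in the reproductive tract and some of which form amyloid in the epididymal lumen, was present with Cst8, Cst11 and Cst12, 3 of the 12 cystatin genes in the table. Cst11 stood at -1.44, 8.90, 0.63 and -1.23 log2 CPM in WT replicates 1 to 4 and at -2.90, 9.41, -0.16 and 9.39 in knockout replicates 1 to 4. Cst8 was at 7.64, 8.15 and 8.36 and Cst12 at 7.22, 7.50 and 7.63 in WT replicate 2 and knockout replicates 2 and 4. Each of these 3 genes was 0.41 to 0.72 higher in knockout replicate 4 than in WT replicate 2. Their share of the reads of the set was 3.30%, 2.63% and 6.29%. Cystatins were found by symbol, so 9230104L09Rik, which RefSeq names Cstdc2, was counted with the clone-named genes. It went the other way, at 8.65 in WT replicate 2 and 8.43 in knockout replicate 4, a difference of -0.21.

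Kazal, Kunitz and serpin inhibitors counted 7 of the 49 genes of those families in the table, none of the 7 a Kunitz gene: Spink5, Spink8, Spink10, Spink12, Serpina16, Serpina1f and Serpinf2. Spink8 stood at 9.19, 9.94 and 8.22 log2 CPM in WT replicate 2 and knockout replicates 2 and 4, and at -3.03 to 0.32 in the others. Serpina1f was at 8.12, 9.43 and 8.35, and its neighbour Serpina16 at 6.41, 6.84 and 2.75. Serpina16 had the largest deficit of knockout replicate 4 against WT replicate 2 in the set, a difference of -3.67. Spink5, known as an inhibitor of kallikreins in skin, was at 7.62, 8.32 and 4.21. Among proteins with a WAP domain, a fold of small inhibitors and antimicrobial proteins, 5 of 18 were in the set, with Wfdc10 at 7.15, 7.89 and 6.49 and Eppin, which binds the seminal protein semenogelin on sperm, at 5.02, 5.55 and 4.42. All 5 were lower in knockout replicate 4 than in WT replicate 2, with a median difference of -0.93.

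Of the secreted CRISP proteins, which attach to sperm and act in its binding to the egg, Crisp1 and Crisp4 were in the set, out of 5 genes in the table. Crisp1 stood at -0.71, 10.06, 1.85 and -1.23 log2 CPM in WT replicates 1 to 4 and at -2.90, 10.10, 0.16 and 9.87 in knockout replicates 1 to 4. Its level in knockout replicate 2 exceeded that in WT replicate 2 by 0.04, where that of Gpx5 did so by 0.76, and the lowest of the 3 was 782 times the level of the other 5 libraries pooled. Crisp4 was at 5.79, 6.61 and 4.32.

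Relatives of RNase A, some of which lack catalytic residues, gave 4 of the 17 such genes in the table. Rnase10, a product of the proximal caput needed for sperm to pass the oviduct junction, stood at -1.44, 9.24, 1.09 and -1.23 log2 CPM in WT replicates 1 to 4 and at -0.09, 9.75, 0.01 and 8.88 in knockout replicates 1 to 4. Rnase9 was at 8.85, 10.23 and 6.77 in WT replicate 2 and knockout replicates 2 and 4. Rnase13 was at 5.59, 7.05 and 1.95 in the same order and had 0 reads in all other libraries, so that its lowest level in the 3 was at least 72.6-fold higher than the 5 pooled (with 3 reads over the group as the floor). The differences between knockout replicate 4 and WT replicate 2 spread from -3.64 for Rnase13 to -0.36 for Rnase10.

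Teddm1a and Teddm2, which encode epididymal membrane proteins, had the next largest margins after Gm15386, 8.67 and 8.91. Teddm2 was at 8.51, 9.04 and 8.61 log2 CPM in WT replicate 2 and knockout replicates 2 and 4 and Teddm1a at 8.61, 9.27 and 8.96. By symbol, the Ly6 family was present with Ly6g5b at 7.64, 8.36 and 8.09 and Ly6g5c at 6.78, 7.60 and 6.80. Among the 13 genes with predicted or clone names, 6 lie next to each other in the RefSeq order of protein-coding genes. RefSeq names 5 of these Pate5, Pate6, Pate7, Pate10 and Pate13, members of the PATE group of secreted Ly6-like proteins, and these names were looked up after the values were seen.

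The symbols of the remaining 31 genes matched no family searched for, which does not exclude that some belong to one. They held genes of epithelial cells in general as well as epididymal ones. Ros1, a receptor tyrosine kinase required for the initial segment to form in mice, was at 5.58, 6.86 and 3.99 log2 CPM in WT replicate 2 and knockout replicates 2 and 4, with at most 3 reads in any other library. Krt5, a keratin of basal cells, was at 3.69, 4.18 and 3.31. Cldn4, Cldn8 and Cldn14, components of tight junctions, and Grhl2, Tfap2a and Tfap2b, transcription factors of epithelia, were also in the set, and Grhl2 was at 3.88, 4.98 and 3.56. Muc5b, a gel-forming mucin, was at 6.50, 8.50 and 4.67 and had the largest excess of knockout replicate 2 over WT replicate 2, 1.998. Cldn14 and Tfap2a were named for their roles after their values were seen.

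The 3 libraries were next compared with each other, which the rule fixes only in part. Of the 100 genes 97 were higher in knockout replicate 2 than in WT replicate 2, with a median difference of 0.81 (quartiles 0.53 and 1.06). The exceptions were Defb43 (-0.80), Cwh43 (-0.32) and Gm5916 (-0.18). Genes outside the set with at least 0 log2 CPM in the 3 libraries had a median difference of 0.11 between the same libraries. The spread over genes was 0.42 (SD) within the set and 0.83 outside it.

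Knockout replicate 4 had a different make-up. Its difference from WT replicate 2 had a median of -0.72 (quartiles -1.72 and 0.14) and an SD of 1.18 over the 100 genes, against a median of 0.14 and an SD of 1.15 outside the set. It was lower than WT replicate 2 for 68 genes and higher for 32, and at least 4-fold lower for 16. The 5 highest differences were Lcn8 (1.22), Defb25 (1.11), Cldn8 (1.05), Defb48 (0.98) and Cwh43 (0.91). The lowest were Serpina16 (-3.67), Rnase13 (-3.64), Spink5 (-3.41), D730048I06Rik (-3.27) and Defb12 (-3.16). Across the 100 genes the log2 levels had a Pearson r of 0.983 between WT replicate 2 and knockout replicate 2, 0.869 between WT replicate 2 and knockout replicate 4 and 0.831 between the knockout libraries. These are descriptions across genes of the same libraries, whose levels share transcript length and library depth. Each of these comparisons is between single libraries, so the differences have no replicate check.

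**Figure D3:**
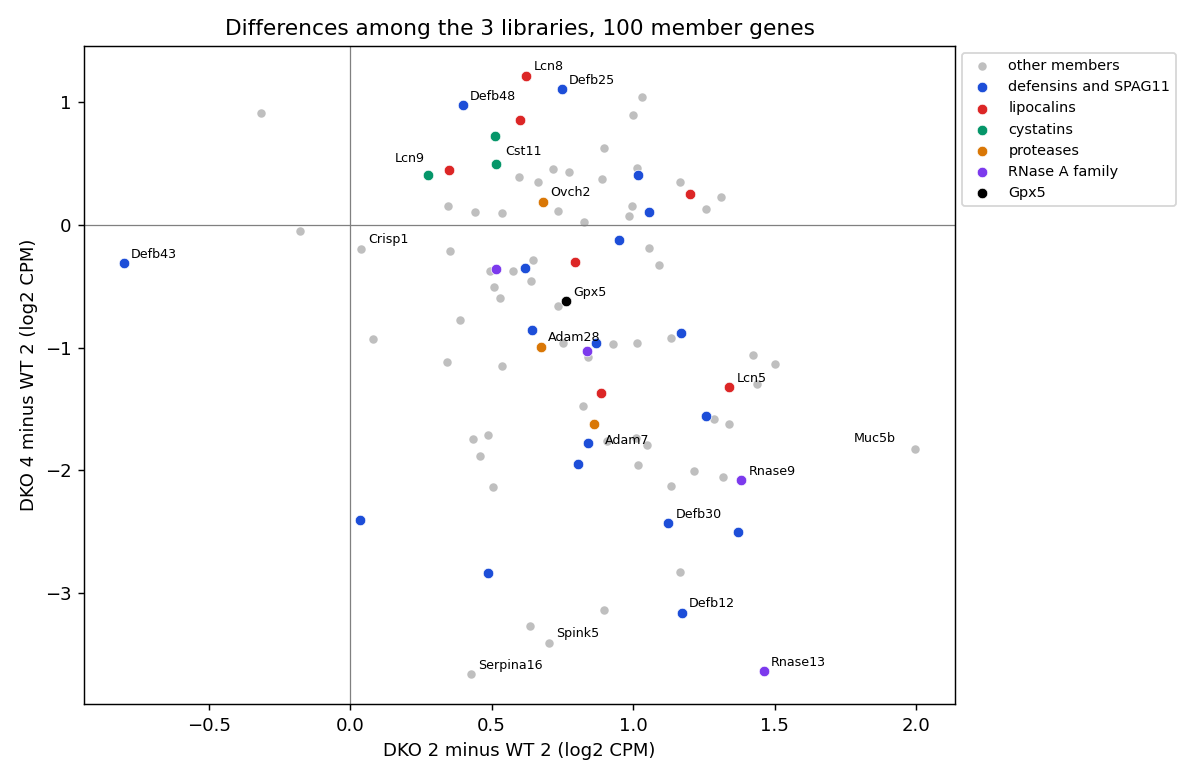
Difference of DKO 4 from WT 2 (vertical axis, log2 CPM) against difference of DKO 2 from WT 2 (horizontal axis, log2 CPM) for the 100 genes, 1 point per gene, coloured by family. Nearly all points lie right of 0, by a median of 0.81, while they spread from -3.67 to 1.22 in the vertical direction, with Lcn8, Defb25 and Defb48 at the top and Serpina16, Rnase13, Spink5 and Defb12 at the bottom.

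Lists of genes known from particular stretches of the duct were compared in the same way. The initial segment and proximal caput list (Cst8, Lcn8, Lcn9, Ros1, Rnase10, Adam28 and Etv4) summed to 2884, 4236 and 4453 CPM in WT replicate 2 and knockout replicates 2 and 4, and to 1.34 to 10.9 CPM in the other 5. Its genes differed between knockout replicate 4 and WT replicate 2 by a median of 0.12. The caput list (Gpx5, Lcn5 and Adam7) summed to 9391, 17297 and 5098 CPM in the 3 and to 1.96 to 30.8 CPM in the others, with a median difference of -1.32 between knockout replicate 4 and WT replicate 2. Lcn8 alone made up 2618 of the 4453 CPM of the first list in knockout replicate 4, and without it the list summed to 1758, 2502 and 1835 CPM in WT replicate 2 and knockout replicates 2 and 4. Within the first list Lcn8 (1.22), Cst8 (0.72), Lcn9 (0.45) and Etv4 (0.12) were higher in knockout replicate 4 than in WT replicate 2, while Rnase10 (-0.36), Adam28 (-0.99) and Ros1 (-1.59) were lower. All 3 genes of the caput list were lower. Both lists are short, and all but Etv4 of these genes are members of the set.

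Dropping knockout replicate 4 from the rule, so that only WT replicate 2 and knockout replicate 2 had to be high, let 54 further genes reach the margin of the 100th gene, for 154 in all. They included Ces5a, an epididymal carboxylesterase, Spint4, a Kunitz inhibitor, and Defb22, a defensin of the sperm coat, named after their values were seen. Defb22 had 1058 reads in WT replicate 2, while knockout replicate 2 had 3831 and knockout replicate 4 had 8. Ces5a stood at 7.48 and 8.57 log2 CPM in WT replicate 2 and knockout replicate 2 and at 3.67 in knockout replicate 4. Dropping WT replicate 2 instead let in 3 genes (Actg2, Hgfac and 4930412O13Rik), and dropping knockout replicate 2 let in 0.

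**Figure D4:**
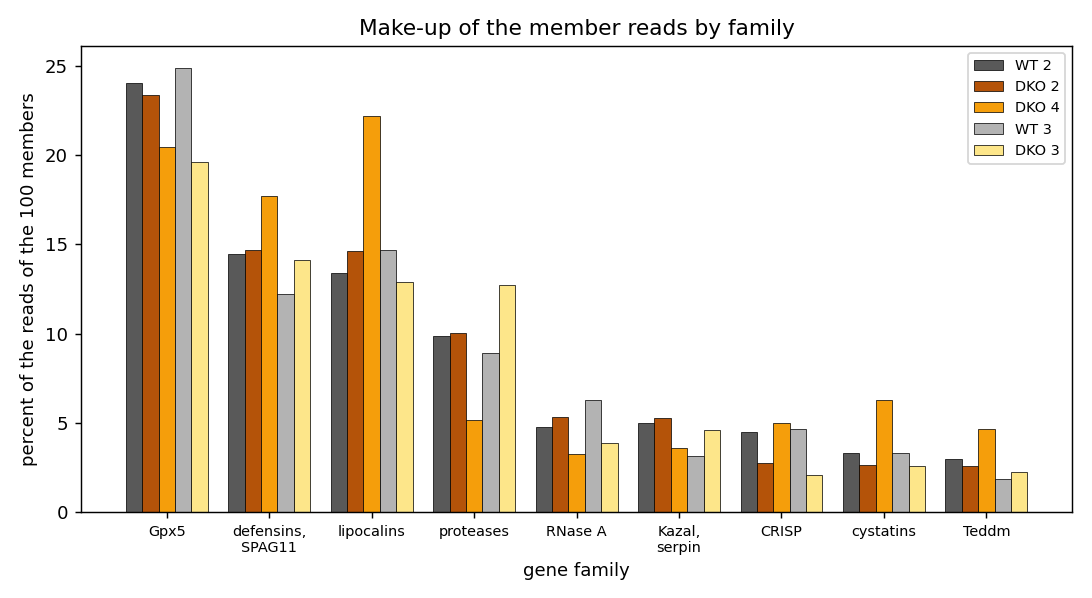
Share of the reads of the 100 genes (percent, vertical axis) that fell on 9 gene families (horizontal axis) in the 3 libraries where the set is high (WT 2, DKO 2, DKO 4) and in WT 3 and DKO 3, which had 539 and 2196 such reads. Gpx5 holds between 19.6% and 24.9% in all 5, and lipocalins hold 22.2% in DKO 4 against 13.4% in WT 2.

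In the other 5 libraries the genes were not wholly absent. The 5 libraries held 2898 reads of the set together, with a median of 11.5 reads per gene and a maximum of 593 for Gpx5. In the 3 libraries each gene had at least 57 reads, whereas 75, 32, 64, 73 and 11 of the 100 genes had 0 reads in WT replicates 1, 3 and 4 and knockout replicates 1 and 3. Over the 5 pooled, 7 genes had 0 reads (Defb37, Defb45, Wfdc9, Rnase13, Gm17677, Obp2a and Gm5916) and 23 had 1 to 3. For 24 genes the highest of the 5 values came from a library with 0 reads, so their margin is set by that library's depth and not by a measured level. WT replicate 3 and knockout replicate 3 carried most of the trace, and in them Gpx5 held 24.9% and 19.6% of the reads of the set, beside 20.5% to 24.03% in the 3 libraries. Over the 100 genes, the log2 levels of WT replicate 3 had a Pearson r of 0.841 with WT replicate 2. With knockout replicates 2 and 4 the r was 0.809 and 0.820. Knockout replicate 3 had an r of 0.840 with WT replicate 2, and of 0.844 and 0.790 with knockout replicates 2 and 4. These are descriptions across genes, in which the 32 genes at 0 reads in WT replicate 3 and the 11 in knockout replicate 3 are tied.

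The margin of the set ran from 9.07 (536-fold) down to 4.75 (26.9-fold). Its median was 6.08, against a median of -0.67 over all 16505 genes. The top margin, that of Gm15386, is set by a library with 0 reads, so the 536-fold is not a ratio of measured levels. Of all genes, 1513 (9.17%) were higher in each of the 3 libraries than in any of the 5 and 122 (0.739%) were so by more than 4 log2 units, which the 100 genes meet by construction. Just inside the threshold lay Grhl2 (4.79), Ceacam10 (4.75) and 9230113P08Rik (4.75). Just outside it lay 4930412O13Rik (4.72), Defb2 (4.72) and Gc (4.70), so no gap separates the set from the genes that follow.

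Markers of other cells were read in the same libraries. A list of 9 germ cell and sperm genes (such as Prm1, Prm2 and Tnp1), none of which is in the set, summed to 33.0, 134 and 26.9 CPM in WT replicate 2 and knockout replicates 2 and 4, with none of the 9 at 0. It summed to 19.7 CPM in WT replicate 3, also with none at 0, and to 0 to 2.15 CPM in the other 4 libraries. WT replicate 3 was therefore close to knockout replicate 4 for sperm genes while its share of the 100 genes was over 240 times lower. Clear cell genes (Atp6v1b1, Atp6v1g3, Foxi1) summed to 19.6, 39.2 and 4.43 CPM in the 3 and to 0 to 0.15 CPM elsewhere. Basal cell genes (Krt5, Krt14, Trp63, Cldn1) summed to 46.7, 72.8 and 44.2 CPM against 2.21 to 5.81 CPM. The 10 general genes of epithelium, of which Cldn4 and Grhl2 are in the set, summed to 351, 656 and 508 CPM against 12.8 to 189 CPM, with 9 of them above all other libraries in each of the 3.

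Akr1b7, an aldo-keto reductase abundant in the vas deferens, had 55255 reads (2717 CPM) in knockout replicate 4 and 0 to 5.61 CPM in the other 7 libraries. Smooth muscle genes (Myh11, Acta2, Cnn1, Des) summed to 2654 CPM in knockout replicate 4 and to 112 to 372 CPM in the rest. Seminal vesicle transcripts were represented in the table by Svs5 alone, at 0 to 0.32 CPM. The 4 genes of steroid-producing Leydig cells summed to 4.55 to 18.0 CPM over the 8 libraries. Of these 4, only Cyp17a1 was above the other 5 libraries in each of the 3. It had 160 reads in WT replicate 2 and 731 and 13 in knockout replicates 2 and 4, against 0 to 10 elsewhere. The part of these other cells in the make-up of knockout replicate 4 was not tested.

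**Figure D5:**
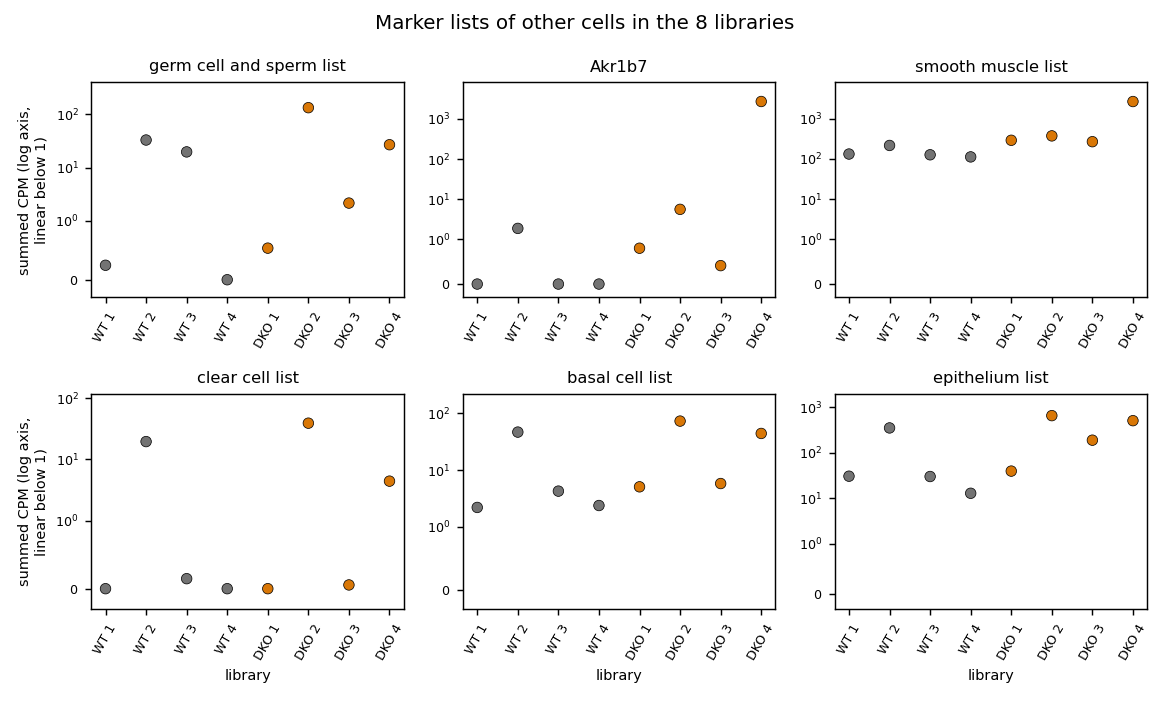
Summed level (CPM, vertical axes, logarithmic above 1 and linear below) of 6 marker lists in the 8 libraries (horizontal axes, WT in grey, knockout labelled DKO in orange). Clear, basal and epithelial markers are highest in WT 2, DKO 2 and DKO 4, sperm markers are also above 10 CPM in WT 3, and Akr1b7 and smooth muscle stand out in DKO 4 at 2717 and 2654 CPM.

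A broader list of 74 genes expressed in the epididymis was read beside the set. Of these, 66 were in the table, 42 were in the set and 60 were higher in each of the 3 libraries than in any of the 5. The 42 are among the 60 by construction of the rule, and over all genes the share was 9.17%. The genes outside the set included Clu and Lcn2, which other cells also express. Clu, a secreted chaperone, stood at 10.93, 12.19 and 9.63 log2 CPM in WT replicate 2 and knockout replicates 2 and 4 and at 5.25 to 7.33 elsewhere. Npc2, a secreted cholesterol-binding protein, stood at 8.96 to 10.37 in all 8 libraries with overlapping groups.

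Because 2 of the 3 libraries are knockout, the set was also read by genotype, as a property of these libraries and not as an effect of the deletion. The rule chose genes that are high in 1 WT and 2 knockout libraries, so it fixes both the sign of the difference and a wide spread within each group, and nothing is read from the outcome. Gpx5 was at 4.76 ± 5.44 log2 CPM in WT and 7.34 ± 6.25 in the knockout (mean ± SD, n = 4 each), and the groups overlapped. Of the 67 genes of the set that passed the filter on low values, 0 were called by limma at an adjusted p of 0.05 and 0 at an unadjusted p of 0.05, and a fit with voom weights also called 0. Over all 13797 tested genes 5353 (38.8%) were called, and 6776 had an unadjusted p under 0.05. The broader epididymis list, of which 42 genes are in the set, gave 0 calls among 43 tested genes and 0 at an unadjusted p of 0.05. In the 5 libraries outside the 3, where 3847 of 13497 tested genes (28.5%) were called, 5 genes of the set passed the filter and 0 were called, with 0 at an unadjusted p of 0.05. In the same libraries 9 genes of the broader list were tested and 1, Clu, was called, with a knockout minus WT difference of 1.44 ± 0.23 (SE, limma adjusted p = 0.00205). The labels do not state litters or housing, so these p-values measure only the spread between the samples.

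Many of the genes are neighbours in the genome. Of the 100, 99 were matched to the RefSeq table of protein-coding genes (GRCm38.p6), and 52 of them fell into 14 runs. In a run at most 2 other protein-coding genes stood between one member and the next. Runs were not counted for other genes, so the 52 has no background share beside it. Gm15386 and Defb41 matched the same RefSeq gene and were counted as separate members of the same run. Lcn8, Lcn5, Lcn6, Lcn10 and Obp2a followed each other directly, as did Defb48, Defb47, Defb43, Defb30 and Defb42. Other runs were Cst11, Cst12 and Cst8 with 9230104L09Rik, then Eppin, Wfdc6b, Wfdc9 and Wfdc10, then Rnase10, Rnase9 and Rnase12, and Adam7 with Adam28. In 6 runs every member was lower in knockout replicate 4 than in WT replicate 2, in 2 every member was higher, and the other 6 held members on both sides. Among the last, in the lipocalin run the difference of knockout replicate 4 from WT replicate 2 ran from -1.32 (Lcn5) to 1.22 (Lcn8), and in the run of Defb48 from -2.43 (Defb30) to 0.98 (Defb48).

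The promoters of these contrasting neighbours are printed so that their start regions can be compared, together with those of Gpx5, Lcn9 and Rnase10, abundant genes of the set. Each is the 250 bases before the transcription start as RefSeq gives it, on the strand of the gene, 5′ to 3′, in build GRCm38.p6. The regions are chr13:21292687-21292936 (minus strand) for Gpx5, chr2:25652868-25653117 (plus) for Lcn8, chr2:25657702-25657951 (plus) for Lcn5, chr2:25822903-25823152 (plus) for Lcn9, chr14:62984511-62984760 (minus) for Defb48, chr14:63037847-63038096 (minus) for Defb30 and chr14:51007501-51007750 (plus) for Rnase10. Capitals mark AGAACA or its reverse complement TGTTCT, the hexamer that androgen and glucocorticoid receptors recognise, and TATAAA or its reverse complement TTTATA, the TATA box.
Gpx5: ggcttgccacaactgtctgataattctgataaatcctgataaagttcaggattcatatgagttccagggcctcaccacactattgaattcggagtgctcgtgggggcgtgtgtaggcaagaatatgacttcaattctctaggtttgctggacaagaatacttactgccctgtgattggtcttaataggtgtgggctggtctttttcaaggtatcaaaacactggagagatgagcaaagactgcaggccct
Lcn8: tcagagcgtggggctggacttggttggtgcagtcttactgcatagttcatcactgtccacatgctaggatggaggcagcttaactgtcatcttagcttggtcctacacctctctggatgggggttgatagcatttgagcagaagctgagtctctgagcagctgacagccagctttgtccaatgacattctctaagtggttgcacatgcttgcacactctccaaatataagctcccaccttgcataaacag
Lcn5: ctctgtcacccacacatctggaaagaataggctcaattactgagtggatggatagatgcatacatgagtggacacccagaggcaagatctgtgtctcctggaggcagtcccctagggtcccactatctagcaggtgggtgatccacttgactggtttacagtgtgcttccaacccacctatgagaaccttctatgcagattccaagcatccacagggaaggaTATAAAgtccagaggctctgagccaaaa
Lcn9: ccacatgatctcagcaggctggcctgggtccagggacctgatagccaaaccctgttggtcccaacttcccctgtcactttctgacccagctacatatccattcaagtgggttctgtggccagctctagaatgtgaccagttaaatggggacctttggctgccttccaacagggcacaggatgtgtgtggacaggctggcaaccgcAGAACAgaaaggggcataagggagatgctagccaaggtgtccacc
Defb48: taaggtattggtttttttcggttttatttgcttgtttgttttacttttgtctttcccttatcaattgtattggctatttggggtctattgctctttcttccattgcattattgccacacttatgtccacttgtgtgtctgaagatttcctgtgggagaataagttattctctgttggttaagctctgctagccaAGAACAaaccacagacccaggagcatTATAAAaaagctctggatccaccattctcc
Defb30: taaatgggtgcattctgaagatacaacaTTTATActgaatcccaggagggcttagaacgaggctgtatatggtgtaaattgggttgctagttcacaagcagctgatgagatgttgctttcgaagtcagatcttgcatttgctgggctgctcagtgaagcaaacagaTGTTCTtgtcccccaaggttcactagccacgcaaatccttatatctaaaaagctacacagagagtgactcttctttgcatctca
Rnase10: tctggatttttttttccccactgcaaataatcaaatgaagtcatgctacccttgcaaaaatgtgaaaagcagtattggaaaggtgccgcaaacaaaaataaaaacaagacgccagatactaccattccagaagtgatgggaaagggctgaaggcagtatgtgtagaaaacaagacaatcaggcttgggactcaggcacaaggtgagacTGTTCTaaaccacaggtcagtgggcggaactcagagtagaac

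In these windows Lcn5 had TATAAA from 28 to 23 bases before the start and no AGAACA, and Lcn8 had neither. Lcn9 had AGAACA from 45 to 40 bases before its start. Defb48 had AGAACA from 56 to 51 and TATAAA from 30 to 25 bases before its start. Defb30 had TGTTCT from 84 to 79 and TTTATA from 222 to 217, and Rnase10 had TGTTCT from 42 to 37. Gpx5 had neither. A match is a run of letters and not a site, and a window without one says nothing of the factor.

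Of the 100 genes 80 had a promoter in the RefSeq table, giving 79 promoters since Gm15386 and Defb41 share one. AGAACA on either strand was found in 35 of the 79 (44.3%) over 300 bases, the 250 before and 50 after the start, against 5139 of 27025 promoters of all genes (19.0%). In the 250 bases before the start the counts were 28 of 79 (35.4%) and 4369 of 27025 (16.2%). The paired form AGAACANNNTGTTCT was in 0 of the 79 and in 1 of the 27025. TATAAA on either strand was in 11 of 79 (13.9%) against 14.2% of all promoters. On the strand of the gene and 16 to 40 bases before the start, TATAAA was in 4 of 79 (5.06%: Crisp1, Defb15, Defb48 and Lcn5) against 2.22%. Copies within a family share sequence, base composition was not matched, and the shares are given as a description with no test.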

How the data were processed

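The authors deposited 1 table of log2 CPM values for 16505 genes in the 8 libraries. The submitters' processing notes name Trimmomatic, TopHat2, featureCounts, limma and mm9, with versions not given in the sources used. Deposited log2 values are those of voom (0.5 added per count, 1 per total), from which whole reads were recovered, 100% of them within a tolerance of 0.01 read. No scaling beyond the library total was applied. The genes and lists were chosen with earlier results of these data known. The genotype fit used limma 3.58.1 in R 4.3.3 (eBayes with trend, two-sided, Benjamini-Hochberg at 0.05 over genes whose mean reached 0 log2 CPM) and was tested on simulated data. A count model was not made the main test because the deposited unit is log2; the fit with voom weights on the recovered reads is an alternative. Genes were named by family (up to 6 per family by level), by the 10 largest margins and the 10 highest levels, by the extremes of the differences among the 3 libraries and by their place at the threshold. Exon lengths, the union of all annotated exons of a gene, came from GENCODE release M21, matched by symbol for 98 of the 100 genes. Gene order, names and promoters came from RefSeq. Alternatives were other added constants, 50 or 200 genes, centring, quantile normalization, other filters, the replicate number as a block and leaving out each library. Added after the data were seen were a pooled low side of the rule, the fit in the 5 other libraries and the voom weights. Plots were drawn with matplotlib 3.10.9.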

Additional observations from a re-analysis of the deposited data

Results flagged for a closer look

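Values are Dixon's ratio, the gap of the extreme library to its nearest neighbour over the range of its group of 4, each above the 95% critical value. Chance flags about 1 in 20 groups, and 27 of 60 were flagged. Of these, 23 are the high WT replicate 2, and for the members, their families and the 3 epididymal lists, which hold 42 of 66, 6 of 7 and 3 of 3 members, that follows from the rule. The ratio was 0.997 for the share of the 100 genes and for Gpx5, CRISP, WAP domain, cystatin, lipocalin, protease and clone-named genes. It was 0.998 for defensins, Kazal and serpin inhibitors, Ly6 and Teddm genes, 0.996 for RNase A and the remaining genes and 0.979 for solute carriers. Among lists it was 0.987 for the broader epididymis list, 0.997 for the initial segment and caput lists, 0.948 for epithelium, 0.939 for principal cells, 0.992 for clear cells, 0.954 for basal cells and 1.0 for Akr1b7, at 1.88 CPM against 0 in the other WT libraries. In the knockout group, replicate 4 stood apart for Akr1b7 (0.998) and smooth muscle genes (0.956), and replicate 2 for clear cell genes (0.887). Adipocyte genes were high in WT replicate 3 (0.94), at 13374 CPM against at most 7727 in the other WT libraries.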

How the results depend on the processing

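The set depended little on the scale: the rule on log2(CPM + 1) kept 88 of the 100 genes, on log2(CPM + 0.1) 96, after median centring 98 and with the 5 libraries pooled 92, while the filter on low values left 67 of them eligible, and taking 50 genes gave 50 of the 100. Leaving out 1 library kept 77 to 100, with the lowest value without knockout replicate 4. By limma, 0 genes of the set were called in each of the 16 alternatives, from which nothing is read because the rule used these values. At an unadjusted p of 0.05 by limma, 5 of 67 passed with the replicate block, against 6923 of 13797 over all tested genes. Without WT replicate 2, 7 of 45 passed, against 6653 of 13750 over all tested genes. Leaving out 1 library moved the set's median knockout minus WT difference from 2.50 to between 0.91 and 5.16. Of the broader epididymis list 0 to 2 genes were called with 1 library left out. They were Clu and Cuzd1 (2 of 35 tested) without WT replicate 2 and Npc2 (1 of 31) without knockout replicate 2. Over all tested genes 37.6% and 36.5% were called in the same fits. With the replicate number as a block 1 of 43 was called (Clu, 2.04, limma adjusted p = 0.0248), against 38.9% over all tested genes. In the 5 other libraries 1 of 9 was called, against 28.5%. The cause was not tested, and fewer genes were tested when those libraries were left out. All-gene calls numbered 5353, 5368 with the replicate block and 3958 to 6370 with 1 library left out. After median centring 2160 were higher and 2837 lower, against 3137 and 2216. The deviations of same-numbered WT and knockout libraries from their group means had r of 0.36, 0.79, 0.24 and -0.36 for replicates 1 to 4. Without the 100 genes r was 0.16, 0.68, 0.11 and -0.21 in the same order. The sign was not uniform, so the numbers were not taken as pairs. Depth limits the low side: 1 read was worth 0.27 CPM in knockout replicate 1 and 0.013 CPM in knockout replicate 2.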

Other observations

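Knockout replicate 4 differed from the other libraries in genes outside the set. There, 13 genes stood more than 4 log2 units above all 7 other libraries, against 0 in WT replicate 2 and 0 in knockout replicate 2. After Akr1b7 the largest margins were those of Pcp4 (7.57), a calmodulin-binding peptide, Ptgs2 (7.47), the inducible prostaglandin synthase, Fxyd4 (5.82), a regulator of the sodium pump, and Mybpc1 (5.56), a myosin-binding protein. Ptgs2 had 6686 reads in knockout replicate 4 and at most 114 in any other library. Cnn1, a smooth muscle protein, had 5025 reads there. These genes were picked by their values in 1 library, so no test is given.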
